A study of Danio rerio with 15 samples.

Results

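The comparison described here sets ventricles of adult zebrafish taken 2 days after a course of phenylhydrazine against ventricles of fish that had the same baths without the compound. It uses the 3 arrays titled as 2 days after treatment and the 3 titled as control, 6 of the 15 arrays of the series, and all 19260 genes with a symbol. Phenylhydrazine was put in the fish water for 30 min every 3 days over 5 weeks, first at 1.25 µg/mL for a week and from then on at 2.5 µg/mL. Each array held 250 ng of labelled RNA from a pool of 3 ventricles, and the labels call the 3 pools of a group biological replicates. The other groups, the end of treatment and 5 and 9 days of recovery, also have 3 arrays each and are used only to show where 2 days differed from them. The labels state no strain, age or sex, and control fish have no sampling day in the labels, so days of recovery and day of sampling cannot be told apart.

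Phenylhydrazine oxidises haemoglobin and destroys red blood cells, and the anaemia that follows drives the blood-forming tissue, in adult fish the kidney marrow, to release young red cells. Red cells of fish keep their nuclei and carry RNA, so RNA of a ventricle includes that of the blood in its chamber and vessels. A heart that pumps more to make up for thin blood meets both low oxygen and a volume load, and the zebrafish heart muscle can also divide and regrow after injury. The comparison asks which genes still differed from control once the compound had been gone for 2 days.

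Values are log2 expression levels as the authors deposited them. A difference is 2 days minus control on that log2 scale ± its standard error from limma's fit, where n = 3 arrays in each group. The words rose and fell are kept for genes with an adjusted p under 0.05. The number of arrays limits the precision, and the median standard error was 0.143. By this rule 2268 genes (11.8%) were called, 1468 higher (7.62%) and 800 lower (4.15%), and these shares are the background for the gene lists below. Of the called genes 2223 had control and 2-day arrays that did not overlap. The rule that named the largest changes and the called list members required this, so for those genes it adds no support. The split depended on scaling: with each array centred on its median, 1039 were higher and 1461 lower. The counts were 1469 without control replicate 1 and 1488 without 2-day replicate 3. Control and 2-day arrays correlated at 0.9753 to 0.9802, against 0.9807 to 0.9846 within the groups. These correlations ran over all 75212 transcript clusters, with or without a symbol, which are not independent replicates.

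Most of the called genes did not differ detectably from the end of treatment. Of the 2268, 1738 were not called between 2 days and the end of treatment. Of the risen genes 240 were lower at 2 days than at the end of treatment and 147 were higher. Of the fallen genes 109 were higher at 2 days than at the end of treatment and 34 were lower. The 147 and 34 genes include red cell, interferon and Krüppel-like factor genes described below. Some calls between 2 days and the end of treatment depended on single arrays. Among genes below, such a call held in 1 of 6 leave-outs of 1 array for slc4a1a, urod, tfr1a, mpeg1.2, isg15, cdc25b and dhh. It held in 2 of 6 for tfr2 and in 3 of 6 for dhx58.

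**Figure D1:**
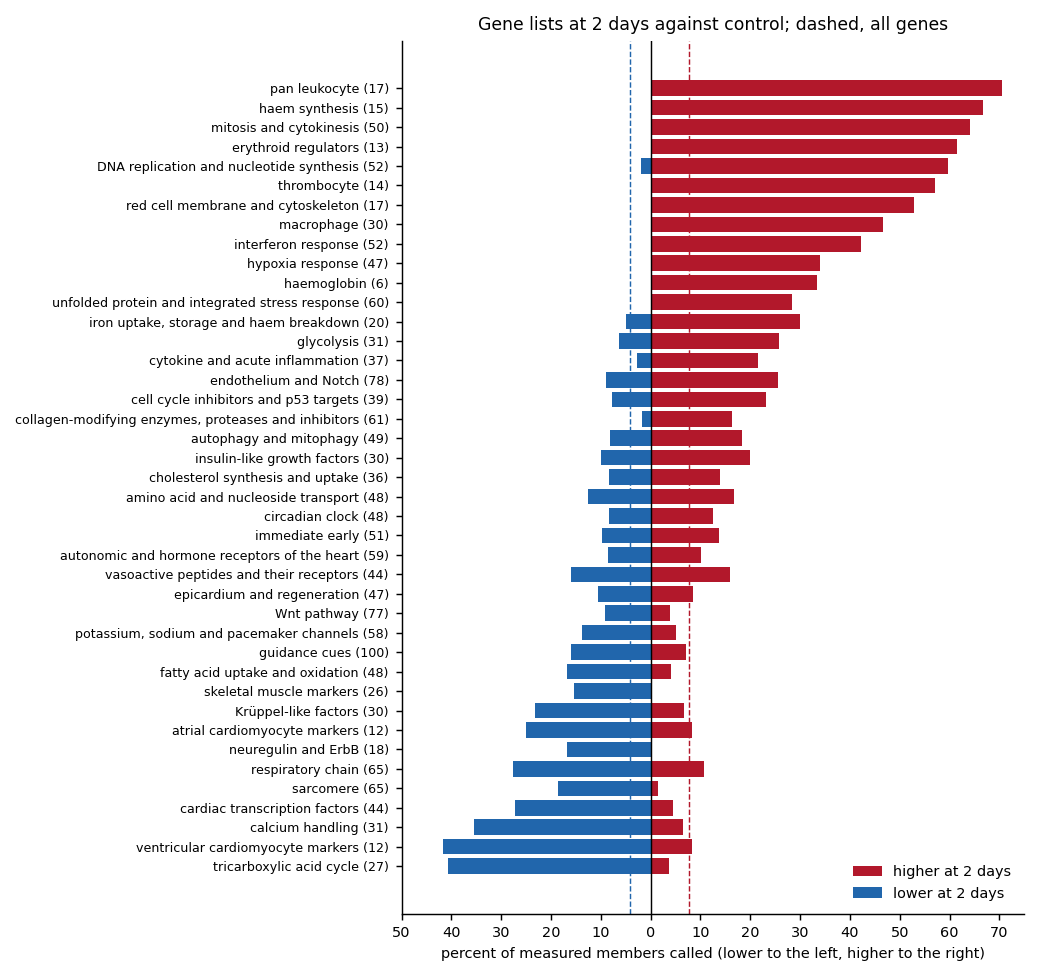
Percent of the measured members of each gene list called higher (red, to the right) or lower (blue, to the left) at 2 days against control, with the number of measured members in brackets. The dashed lines mark the shares of all genes, 7.62% higher and 4.15% lower, and the 41 lists drawn passed 2 times either share. Pan leukocyte, haem synthesis, mitosis and erythroid regulator lists reach furthest to the right, and tricarboxylic acid cycle, ventricular marker and calcium handling lists furthest to the left.

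The bar chart of list shares shows blood and cell division genes on one side and heart muscle and mitochondrial genes on the other. Lists of known members of a pathway or markers of a cell type were each described by how many of the measured members were called and by the median difference, beside a median of 0.013 over all genes. No set test was made, and many counts of 5 or fewer changed when 1 array was left out.

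Genes of red cells were higher at 2 days than in control. Of 6 measured haemoglobin genes 2 rose, of 17 genes of the red cell membrane and cytoskeleton 9 rose and 0 fell (median difference 0.68), of 15 haem synthesis genes 10 rose and 0 fell (0.51), and of 13 erythroid regulators 8 rose and 0 fell (0.53). Counts of 10 and 8 in the latter lists became 9 and 6, with 1 regulator lower, when arrays were centred on their median. In whole ventricles, more cells of a type and more RNA per cell cannot be told apart.

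The adult alpha globin gene hbaa2 had log2 levels of 7.58, 9.03 and 8.08 in the control arrays and 11.43, 10.94 and 11.28 in the 2-day arrays. All 2-day arrays lay above all control arrays, and the second control array was the highest of the controls. The difference was 2.99 ± 0.28 (adjusted p = 4.33e-06), a fold of 7.94. The beta globin gene hbba2 followed with 7.87, 8.96 and 8.18 in control and 11.14, 10.67 and 10.87 at 2 days, a difference of 2.56 ± 0.20 (adjusted p = 7.78e-07), again without overlap. Embryonic beta globin genes were not called, with 0.19 ± 0.20 for hbbe2 and -0.14 ± 0.16 for hbbe3, and whether probes of near-identical globin copies share signal was not tested.

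Neither hbaa2 nor hbba2 was called between 2 days and the end of treatment (0.63 ± 0.28, adjusted p = 0.221, and 0.60 ± 0.20, adjusted p = 0.0869). For both, all 2-day arrays still lay above all arrays of the end of treatment. Some membrane genes were called, but whether globin and membrane genes differed in this was not tested. The anion exchanger gene slc4a1a, which encodes the main transport protein of the red cell membrane, stood at 7.07, 8.18 and 7.47 in control and 10.47, 10.36 and 10.52 at 2 days. It rose by 2.88 ± 0.20 (adjusted p = 1.8e-07) and was 0.71 ± 0.20 above the end of treatment (adjusted p = 0.0342). The latter call held in 1 of 6 leave-outs of 1 array. The tropomodulin gene tmod4, whose family caps actin filaments, had control levels of 5.43, 6.06 and 5.85 and 2-day levels of 8.72, 8.38 and 8.48, with no overlap. It rose by 2.75 ± 0.19 (adjusted p = 2.32e-07) and exceeded the end of treatment by 1.26 ± 0.19 (adjusted p = 0.000545).

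Further genes of gas and water transport moved the same way. The carbonic anhydrase gene cahz rose by 2.02 ± 0.17, the Rh ammonium transporter gene rhag by 1.62 ± 0.15 and the aquaporin gene aqp1a.1 by 1.16 ± 0.11, and each was also higher at 2 days than at the end of treatment, by 0.85 ± 0.17, 0.83 ± 0.15 and 0.84 ± 0.11. For aqp1a.1 the 2-day arrays (9.09, 8.87 and 9.09) were also above 5 days of recovery, by 0.62 (adjusted p = 0.0355). Of the 17 membrane and cytoskeleton genes 11 were higher at 2 days than at the end of treatment and 0 lower, where the background was 3.52% of genes higher and 4.45% lower. At the end of treatment 4 genes of that list were above control and 2 below, where 14.6% of all genes were above and 9.60% below, and these contrasts share arrays with the ones above. The genes rhd, add2 and epb41b, chosen after their values were seen, rose by 1.37, 1.195 and 1.05 against control.

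Enzymes of haem synthesis differed in their course. The first enzyme of erythroid haem synthesis, encoded by alas2, had levels of 9.76, 10.50 and 9.90 in control and 12.04, 11.92 and 11.94 at 2 days. It rose by 1.92 ± 0.17 (adjusted p = 1.97e-06) and stood 1.102 ± 0.17 above the end of treatment (adjusted p = 0.000456). The mitochondrial iron importer mitoferrin, encoded by slc25a37, likewise rose by 2.03 ± 0.17 and stood 0.92 ± 0.17 above the end of treatment (adjusted p = 0.00239). The uroporphyrinogen III synthase gene uros varied little within groups, at 6.90, 6.85 and 6.80 in control against 8.17, 8.13 and 8.20 at 2 days. It rose by 1.32 ± 0.08 (adjusted p = 1.48e-07) and was the haem gene called higher at 2 days than in every other group, by 0.57 ± 0.08 over the end of treatment and by 0.50 over 5 days (adjusted p = 0.02).

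The uroporphyrinogen decarboxylase gene urod rose by 0.98 ± 0.13 over control but was lower than at the end of treatment by 0.44 ± 0.13 (adjusted p = 0.044). The ferrochelatase gene fech, whose product inserts the iron, rose by 1.15 ± 0.10 and differed from the end of treatment by -0.20 ± 0.10 (adjusted p = 0.321). The genes hmbsb and ppox, chosen after their values were seen, rose by 1.47 and 1.31.

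**Figure D2:**
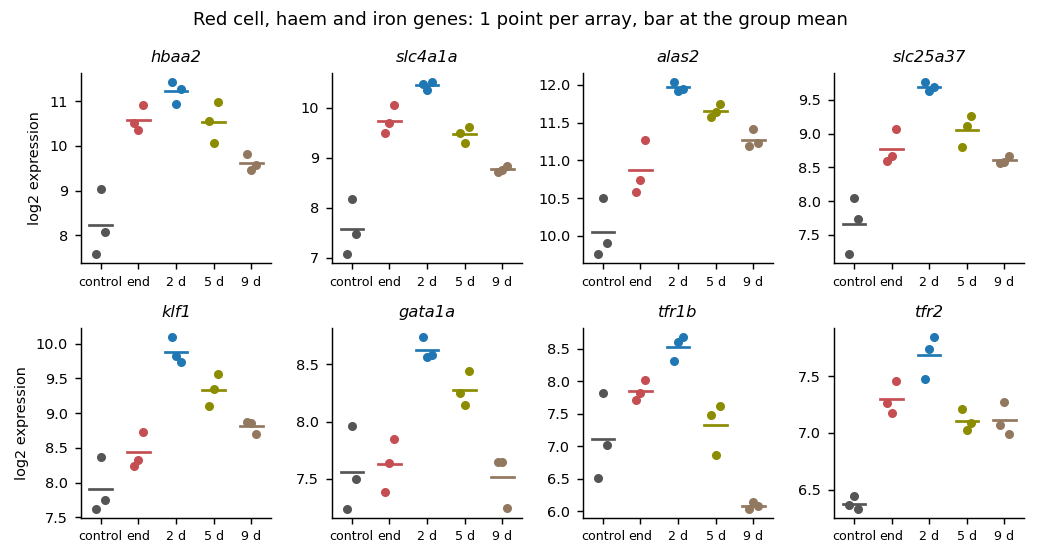
Log2 expression of red cell, haem and iron genes in each group, with 1 point per array and a bar at the group mean, n = 3 arrays per group, each panel on its own scale. The 2-day arrays lie above all control arrays in every panel, and klf1 and gata1a stand higher at 2 days (means 9.88 and 8.63) than at the end of treatment (8.44 and 7.62).

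Regulators of red cell formation were often above the end of treatment. Of the 13 measured, 7 were higher at 2 days than at the end of treatment and 0 lower, whereas at the end of treatment 3 were above control and 4 below. The transcription factor gene klf1, a direct activator of globin genes, had levels of 7.62, 8.37 and 7.75 in control and 10.10, 9.82 and 9.73 at 2 days. It rose by 1.97 ± 0.17 (adjusted p = 2.53e-06) and exceeded the end of treatment by 1.45 ± 0.17 (adjusted p = 7.77e-05). The gene of the master erythroid factor, gata1a, stood at 7.23, 7.96 and 7.49 in control and 8.74, 8.56 and 8.58 at 2 days, without overlap. It rose by 1.07 ± 0.16 (adjusted p = 0.000402) and was 1.00 ± 0.16 above the end of treatment (adjusted p = 0.000908), where its mean of 7.62 was near the control mean of 7.56. The plot of red cell, haem and iron genes shows both courses by array.

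Other regulators were called as well. The hemogen gene hemgn rose by 1.71 ± 0.17, gfi1b, which encodes a repressor needed for red cell and thrombocyte formation, by 1.18 ± 0.10, and the progenitor factor gene myb by 0.95 ± 0.19. The erythropoietin receptor gene epor, chosen after its values were seen, was 1.36 higher at 2 days than at the end of treatment. The regulators runx1 (0.34 ± 0.13, adjusted p = 0.123) and zfpm1 (-0.28 ± 0.10, adjusted p = 0.0904) did not pass the test. A few genes were called below control at the end of treatment and above it at 2 days. One was nfe2, which encodes a factor of red cells and thrombocytes. Its levels were 6.12, 6.64 and 6.47 in control, 7.32, 7.02 and 7.004 at 2 days and 5.98 on average at the end of treatment. It rose by 0.71 ± 0.14 over control (adjusted p = 0.00383) and differed from the end of treatment by 1.14 ± 0.14 (adjusted p = 0.000123).

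Of 20 genes of iron uptake, storage and haem breakdown 6 rose and 1 fell, the latter the haptoglobin gene hp, by 0.83, which was chosen after its value was seen. The lower count was 0 without control replicates 1 or 2 or 2-day replicates 1 or 2. Of the transferrin receptor genes, tfr1b had levels of 6.51, 7.82 and 7.01 in control and 8.31, 8.60 and 8.68 at 2 days, a rise of 1.41 ± 0.24 (adjusted p = 0.000996). Its paralogue tfr1a rose by 0.70 ± 0.10 and tfr2, whose product senses transferrin, by 1.31 ± 0.11 (adjusted p = 1.95e-06). Both of the latter were also above the end of treatment, by 0.34 ± 0.10 and 0.39 ± 0.11. The ferritin heavy chain gene fth1a, which stores iron, rose by 0.48 ± 0.07 and stood 0.59 ± 0.07 above the end of treatment. The biliverdin reductase gene blvra, of haem breakdown, rose by 1.17 ± 0.09 (adjusted p = 3.61e-07). The haem oxygenase gene hmox1a did not pass the test (-0.06 ± 0.17, adjusted p = 0.906).

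A score per array, the median over the measured haemoglobin, haem synthesis and red cell membrane genes of the difference from the control mean, was -0.084, 0.125 and -0.031 in control and 0.578, 0.450 and 0.554 at 2 days. It spanned 0.148 to 0.332 at the end of treatment and 0.424 to 0.470 at 5 days. Since the scores of control and 2 days do not overlap, a fit with the score as a covariate multiplied the standard error of the difference by 2.886. That limma fit called 0 genes between 2 days and control at an adjusted p under 0.05, with 1567 at an unadjusted p under 0.05. The part of blood content in the other results was not resolved by that fit.

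Genes of thrombocytes, the clotting cells of fish, rose together with those of red cells. Of 14 measured 8 rose and 0 fell (median difference 0.58), 2 of them, gfi1b and nfe2, also on the list of erythroid regulators. The risen genes fli1 and thbs1b were also on the endothelial and the matrix list. The tubulin gene tubb1, known for platelets in mammals, had levels of 6.70, 7.76 and 6.74 in control and 9.54, 9.36 and 9.56 at 2 days. The groups did not overlap, the rise was 2.42 ± 0.23 (adjusted p = 4.05e-06), and 2 days exceeded the end of treatment by 0.94 ± 0.23 (adjusted p = 0.015). The thrombospondin gene thbs1b rose by 1.02 ± 0.14 and the clotting factor XIII gene f13a1b by 1.11 ± 0.15. The integrin gene itga2b, a classical thrombocyte marker, did not pass the test (0.62 ± 0.21, adjusted p = 0.0717).

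Many pan leukocyte and macrophage genes were also higher than control, and most did not pass the test between 2 days and the end of treatment. Of 17 pan leukocyte genes 12 rose and 0 fell (median 0.63), and of 30 macrophage genes 14 rose and 0 fell (median 0.59). Against the end of treatment 4 pan leukocyte genes were lower and 0 higher, and 2 macrophage genes were higher and 1 lower. Neutrophil genes had 2 of 21 higher (9.52%), near the 7.62% of all genes. These were srgn by 0.33 and alox5ap by 0.77, chosen after their values were seen. With arrays centred on their median 1 neutrophil gene was higher and 2 lower. Lymphocyte genes had 1 of 22 higher (4.55%, below the share of all genes), il2rga. That gene, the common chain of several cytokine receptors, rose by 0.85 ± 0.19, but the difference was 0.56 without control replicate 1.

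The macrophage gene mpeg1.2, which encodes a pore-forming protein, had levels of 6.82, 6.72 and 6.73 in control and 9.05, 8.75 and 9.03 at 2 days. It rose by 2.18 ± 0.12 (adjusted p = 1.07e-07), and was higher than at the end of treatment by 0.45 ± 0.12 (adjusted p = 0.0341) and than at 5 days by 0.79 (adjusted p = 0.0176). Its neighbour in name mpeg1.1 stood at 6.13, 6.53 and 5.71 in control and 7.92, 7.33 and 7.99 at 2 days, a rise of 1.62 ± 0.19, with -0.50 ± 0.19 against the end of treatment (adjusted p = 0.131). The invariant chain genes cd74a and cd74b, which guide antigen presentation, rose by 1.21 ± 0.13 and 1.25 ± 0.14, and the myeloid factor gene spi1b rose by 0.99 ± 0.14. Among genes that leukocytes share, the actin regulator genes coro1a and lcp1 rose by 0.83 ± 0.14 and 0.63 ± 0.11, and itgb2, the beta chain of leukocyte integrins, by 0.73 ± 0.11. Scores of the macrophage list were -0.003, 0.137 and -0.140 in control and 0.538, 0.408 and 0.833 at 2 days.

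Of 37 cytokine and acute inflammation genes 8 rose (21.6%) and 1 fell against control, and 11 were lower and 0 higher than at the end of treatment. The interleukin 11 gene il11a, which is induced in injured zebrafish hearts, had levels of 4.22, 3.99 and 4.40 in control and 5.13, 5.27 and 7.34 at 2 days. One 2-day array stood far above the others, and the rise of 1.71 ± 0.39 (adjusted p = 0.00875) became 0.99 without 2-day replicate 3. Against the end of treatment, where the mean was 8.85, il11a was lower by 2.93 ± 0.39 (adjusted p = 0.000184). The feedback inhibitor gene socs3b stood 0.91 ± 0.20 over control and 1.15 ± 0.20 under the end of treatment. The chemokine gene cxcl12b rose by 1.33 ± 0.20 and differed from the end of treatment by -0.10 ± 0.20 (adjusted p = 0.868). The prostaglandin synthase gene ptgs2a rose by 0.79 ± 0.17, whereas its constitutive relative ptgs1 was the gene of the list that fell, by 0.55 ± 0.11.

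Interferon response genes stood above control in all 3 arrays by their list score. Of 52 measured 22 rose and 0 fell (median 0.41). The count was 17 with arrays centred on their median, and 14 without control replicate 3, without 2-day replicate 1 or without 2-day replicate 2. Scores of the list were between -0.032 and 0.036 in control and 0.506, 0.432 and 0.271 at 2 days. They spanned 0.217 to 0.432 at the end of treatment, 0.074 to 0.144 at 5 days and 0.200 to 0.387 at 9 days. The 9-day scores overlapped those of 2 days. Against 9 days 1 member was higher at 2 days and 0 lower, where 5.93% of all genes were higher and 3.29% lower.

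The gene isg15, which encodes a ubiquitin-like protein attached to others during antiviral responses, had levels of 5.02, 5.48 and 5.43 in control and 6.95, 6.85 and 6.74 at 2 days. It rose by 1.54 ± 0.20 (adjusted p = 7.27e-05) and was 0.69 ± 0.20 above the end of treatment (adjusted p = 0.0398). The latter call held in 1 of 6 leave-outs of 1 array. The gene ifi44a1, of an interferon-induced family, stood at 3.03, 2.64 and 3.27 in control and 5.42, 5.05 and 4.78 at 2 days. It rose by 2.104 ± 0.29 (adjusted p = 0.000142) and stood 1.78 above 5 days (adjusted p = 0.0176). The RNA sensor gene dhx58 rose by 1.37 ± 0.15 and exceeded the end of treatment by 0.65 ± 0.15 (adjusted p = 0.0109).

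Peptide transport for antigen presentation was also represented, with tap2a at 1.07 ± 0.19, and the guanylate-binding protein gene gbp2 rose by 0.90 ± 0.17. The gene ifi27.6, named for its large difference from the end of treatment, was 1.84 ± 0.26 above it (adjusted p = 0.000234) and 1.32 ± 0.26 above control. The antiviral genes rsad2 and cmpk2, chosen after their values were seen, rose by 1.47 and 1.14. The antiviral gene mxa did not pass the test (0.67 ± 0.24, adjusted p = 0.0793). In the same order of 2-day arrays, pan leukocyte scores were 0.686, 0.354 and 0.674 and macrophage scores 0.538, 0.408 and 0.833. The part of leukocyte content in the interferon genes was not tested.

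Genes of DNA synthesis were high at 2 days. Of 52 measured 31 rose and 1 fell (median 0.65), the latter the purine synthesis gene paics, by 0.32, chosen after its value was seen. The lower count was 0 in each leave-out of 1 array. Between 2 days and the end of treatment 3 were higher and 0 lower, and against 9 days 34 were higher and 0 lower, where 5.93% of all genes were higher and 3.29% lower. The thymidylate synthase gene tyms had levels of 5.65, 5.86 and 5.17 in control and 7.90, 8.21 and 7.96 at 2 days. It rose by 2.46 ± 0.17 (adjusted p = 1.67e-07), differed from the end of treatment by 0.09 ± 0.17 (adjusted p = 0.849) and exceeded 9 days, where its mean was 5.12, by 2.90 (adjusted p = 5.13e-08).

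The chromatin assembly gene chaf1b stood at 4.64, 4.84 and 4.51 in control and 6.68, 6.58 and 6.61 at 2 days, a rise of 1.96 ± 0.12 (adjusted p = 1.48e-07). The sliding clamp gene pcna, at 7.28, 7.64 and 7.46 in control and 9.05, 9.16 and 9.08 at 2 days, rose by 1.64 ± 0.11 (adjusted p = 1.67e-07). Both groups were tight and far apart. The helicase gene mcm7 rose by 1.55 ± 0.11 and was the member of the list called above 5 days, by 0.63 (adjusted p = 0.024).

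Mitosis genes were high as well, with 32 of 50 higher and 0 lower (median 0.74). The spindle gene nusap1 had levels of 4.73, 5.098 and 4.12 in control and 6.49, 6.57 and 6.75 at 2 days, and rose by 1.96 ± 0.19 (adjusted p = 7.42e-06). The factor gene foxm1, which drives mitotic genes, rose by 1.68 ± 0.17 and the mitotic kinase gene cdk1 by 1.46 ± 0.14. Against the end of treatment 2 mitosis genes were lower, cdc25b by 0.36 ± 0.10 and birc5a by 0.61, and 0 were higher. Against 9 days 29 were higher and 0 lower. List scores were 0.648 to 0.784 at 2 days, 0.967 to 0.994 at the end of treatment, 0.799 to 0.961 at 5 days and 0.038 to 0.143 at 9 days. The 5-day scores thus lay above those of 2 days. The anaphase activator gene cdc20 was lower at 2 days than at 5 days, by 0.92 (adjusted p = 0.0164), and birc5a and cdc20 were chosen after their values were seen.

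Which cells divide is not resolved in whole ventricles. The list of cell cycle inhibitors and p53 targets, which also holds some genes that drive the cycle, had 9 of 39 higher and 3 lower. The retinoblastoma gene rb1, a brake on entry into DNA synthesis, rose by 1.25 ± 0.14 and the death receptor gene fas by 1.13 ± 0.16. The cyclin E gene ccne1, which drives that entry, rose by 1.04 ± 0.15, and the antiproliferative gene tob1b fell by 0.54 ± 0.09. The inhibitor gene cdkn1a was 0.88 above the end of treatment (adjusted p = 0.0146) and 0.66 ± 0.21 over control, which did not pass the test (adjusted p = 0.0512).

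Chaperone genes differed from the end of treatment more than from control. Of 68 measured 20 were higher at 2 days than at the end of treatment and 0 lower, whereas against control 3 were higher and 1 lower. With arrays centred on their median 1 was higher than control and 4 lower. The 3 higher became 1 without control replicate 3 and without each of 2-day replicates 1, 2 and 3. At the end of treatment 22 had been below control and 2 above, where 9.60% of all genes were below and 14.6% above. List scores were between 0.034 and 0.076 at 2 days, between -0.054 and 0.073 in control and between -0.231 and -0.181 at the end of treatment.

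The Hsp70 family gene hspa8b had the largest rise over control after that of an autophagy gene described below. Its levels were 4.18, 3.92 and 3.60 in control and 7.75, 7.56 and 6.42 at 2 days, with no overlap and the third 2-day array below the other 2. The control levels lay around the array medians over all transcript clusters, 4.022 to 4.095. The rise was 3.34 ± 0.48 (adjusted p = 0.000222), a fold of 10.1, and 2 days exceeded the end of treatment by 2.29 ± 0.48 (adjusted p = 0.00624). Against 5 days the difference of 2.13 did not pass the test (adjusted p = 0.0863).

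The stress-inducible Hsp90 gene hsp90aa1.1, needed in zebrafish for assembly of muscle myosin, behaved otherwise. It stood at 11.07, 11.31 and 10.94 in control and 11.60, 11.06 and 11.28 at 2 days, groups that overlapped (0.21 ± 0.25, adjusted p = 0.709). Its mean at the end of treatment was 9.12, and the difference of 2 days from it was 2.19 ± 0.25 (adjusted p = 6.44e-05). The mitochondrial chaperonin gene hspd1 and the co-chaperone gene bag3, chosen after their values were seen, rose over control by 0.50 and 0.26. Both calls were lost without control replicate 3 and without each of the 2-day replicates. The heat shock factor gene hsf1, which activates chaperone genes, was the one that fell, from 10.57, 10.46 and 10.56 to 10.17, 10.11 and 10.06, by 0.42 ± 0.07 (adjusted p = 0.000726).

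**Figure D3:**
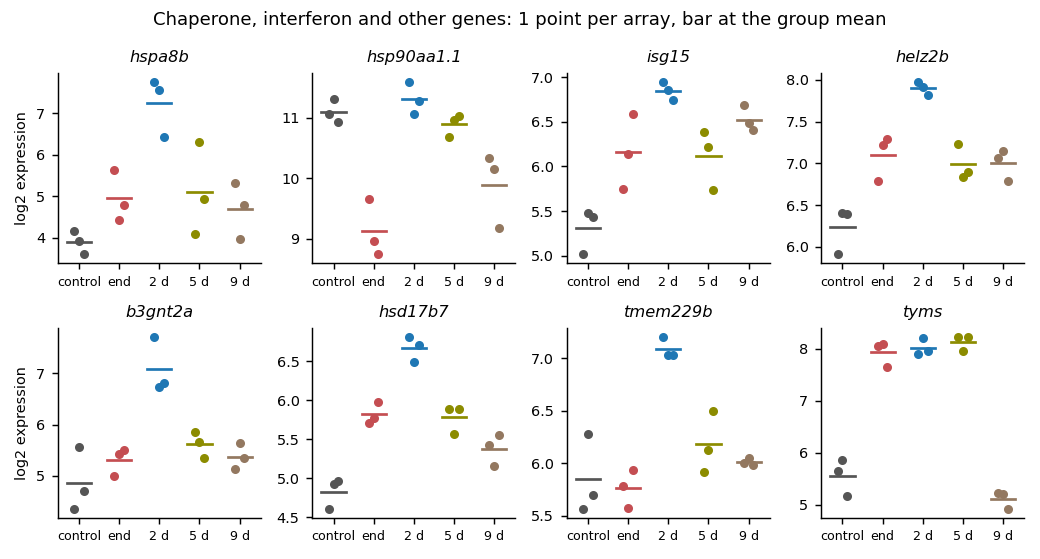
Log2 expression of chaperone, interferon and other genes in each group, with 1 point per array and a bar at the group mean, n = 3 arrays per group, each panel on its own scale. The 2-day arrays of helz2b, hsd17b7 and tmem229b lie above all other arrays, hsp90aa1.1 at 2 days overlaps control and lies above the end of treatment, and tyms is high in the first 3 groups after the start of treatment and low at 9 days.

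Other stress genes had their own courses. Of 60 genes of the unfolded protein and integrated stress responses 17 rose and 0 fell (median 0.24), with 11 higher without control replicate 1 or without 2-day replicate 3. The gene atf5a, a stress factor tied to mitochondrial protein folding, had levels of 5.69, 5.60 and 5.38 in control and 7.12, 7.23 and 7.16 at 2 days. It rose by 1.61 ± 0.11 (adjusted p = 2.23e-07) and exceeded the end of treatment by 0.75 ± 0.11. The haem-regulated kinase gene eif2ak1, whose product slows globin translation when haem is short, rose by 0.88 ± 0.14 and exceeded the end of treatment by 0.77 ± 0.14 (adjusted p = 0.00189). The mitochondrial one-carbon gene shmt2 rose by 1.45 ± 0.14 and exceeded it by 0.71 ± 0.14.

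The oxidase gene ero1a, which forms disulphide bonds in the endoplasmic reticulum, stood at 6.03, 7.26 and 6.35 in control and 8.59, 8.32 and 8.97 at 2 days, a rise of 2.08 ± 0.23 (adjusted p = 2.27e-05). It was 2.21 ± 0.23 lower than at the end of treatment (adjusted p = 3.09e-05), where its mean was 10.84. The stress factor gene atf3 differed from control by 0.63 ± 0.29 (adjusted p = 0.202), and was 1.99 ± 0.29 above the end of treatment (adjusted p = 0.000382), where its mean of 7.44 lay under the control mean of 8.80.

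Of 42 proteasome genes 4 were higher (9.52%) and 1 lower (2.38%) than control, beside 7.62% and 4.15% of all genes. The 4 became 1 without control replicate 1, and 2 without control replicate 3 or 2-day replicates 1 or 2. Against 9 days 23 were higher at 2 days and 1 lower, where 5.93% of all genes were higher and 3.29% lower. List scores were -0.039 to 0.086 in control, 0.040 to 0.163 at 2 days and -0.261 to -0.195 at 9 days. The subunit gene psmd4b rose by 0.52 ± 0.09. Of 49 autophagy and mitophagy genes 9 rose and 4 fell. The gene map1lc3cl, a relative of the autophagosome marker LC3, had the largest rise over control of all 19260 genes, from 3.46, 3.85 and 4.79 to 7.22, 8.08 and 7.99. That is 3.73 ± 0.34 (adjusted p = 2.93e-06), a fold of 13.3, and 2.74 ± 0.34 less than at the end of treatment (adjusted p = 9.25e-05). The control levels of map1lc3cl also lay around the array medians of 4.022 to 4.095. The transcription factor genes foxo1b and tfe3a, which activate autophagy and lysosome genes, rose by 0.72 ± 0.11 and 0.58 ± 0.10 and the mitophagy receptor gene bnip3lb by 0.40 ± 0.07. Genes that fell included ulk1a, of the kinase that starts autophagy, by 0.61, and the muscle ubiquitin ligase genes fbxo32, trim63a and trim63b, by 0.63, 0.52 and 0.41, all chosen after their values were seen.

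Targets of the hypoxia response lay, for many members, between control and the end of treatment. Of 47 measured 16 rose and 0 fell (median 0.26), and against the end of treatment 22 were lower and 3 higher. For the glucose transporter gene slc2a3b the levels were 4.98, 5.31 and 5.11 in control and 6.88, 6.996 and 7.80 at 2 days, 2.09 ± 0.22 over control (adjusted p = 1.08e-05) and 1.49 ± 0.22 under the end of treatment. Its paralogue slc2a3a rose by 1.26 ± 0.24 and was 3.35 ± 0.24 under the end of treatment (adjusted p = 2.21e-06), the largest such fall named here.

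The oxygen sensor gene egln3, a HIF prolyl hydroxylase and itself a HIF target, rose by 1.46 ± 0.20 and was 1.22 ± 0.20 under the end of treatment. Not all members followed. The pyruvate dehydrogenase kinase gene pdk1, which diverts pyruvate from mitochondria, stood at 7.77, 7.87 and 7.76 in control and 9.58, 8.96 and 8.95 at 2 days. It rose by 1.36 ± 0.16 (adjusted p = 2.76e-05) and was 1.04 ± 0.16 above the end of treatment (adjusted p = 0.000431). The HIF alpha relative gene hif1al2 was 2.01 ± 0.28 above the end of treatment and 0.26 ± 0.28 over control (adjusted p = 0.676), with overlapping arrays.

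Glycolysis genes had 8 of 31 higher and 2 lower, against 16 lower and 0 higher than at the end of treatment. The count of 8 became 5 without control replicate 1 and 4 without 2-day replicate 3. The enolase gene eno1b rose by 1.18 ± 0.23 and the dehydrogenase gene gapdhs by 0.94 ± 0.10. The pyruvate kinase paralogues moved in opposite directions, with pkma 0.63 ± 0.10 higher and pkmb 0.72 ± 0.15 lower. For pkmb the levels went from 10.62, 10.69 and 10.50 to 10.02, 10.10 and 9.51 (adjusted p = 0.0041). The lactate dehydrogenase gene ldhba, of the heart-type subunit, fell by 0.42 ± 0.09.

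Genes of oxidative metabolism were lower by small amounts. Of 27 genes of the tricarboxylic acid cycle 11 fell and 1 rose (median -0.17), of 65 respiratory chain genes 18 fell and 7 rose (median -0.20), and of 48 genes of fatty acid uptake and oxidation 8 fell and 2 rose (median -0.16). These counts depended on single arrays and on scaling. Without control replicate 1 the lower counts were 6, 6 and 3, and without 2-day replicate 3 they were 7, 6 and 2. With arrays centred on their median they were 14, 35 and 16. Leaving out control replicate 2 or 2-day replicate 1 gave 9 lower respiratory genes, and 2 to 3 fatty acid genes stayed lower without control replicate 2, control replicate 3 or 2-day replicate 2. The 7 higher respiratory genes became 2 or 3 without control replicates 1 or 3 or 2-day replicates 2 or 3, and 2 after centring.

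The fumarase gene fh went from 12.17, 12.04 and 12.09 to 11.92, 11.76 and 11.64, a fall of 0.33 ± 0.07 (adjusted p = 0.00513) without overlap. The dehydrogenase subunit genes ogdha and ogdhb parted, the first falling by 0.37 ± 0.06 and the second rising by 0.71 ± 0.14. In the respiratory chain, the complex I gene ndufs3 fell by 0.46 ± 0.10 and the complex III gene uqcrc2a by 0.46 ± 0.08, while the complex IV genes cox6a1 and cox6b1 rose by 0.70 ± 0.14 and 0.41 ± 0.06. The coactivator gene ppargc1b, which promotes mitochondrial genes, fell from 9.24, 9.20 and 9.12 to 8.70, 8.59 and 8.46, by 0.60 ± 0.08 (adjusted p = 0.000141). The lipoprotein lipase inhibitor gene angptl4 rose by 1.65 ± 0.36 and the kinase gene pdk2a by 0.78 ± 0.10, whereas its relative pdk4 fell by 0.39 ± 0.08. Mitochondrial ribosome genes had 5 of 68 lower and 0 higher, with mrpl15 at -0.65 ± 0.08. There were 17 lower after centring and 3 lower without control replicates 1 or 2 or 2-day replicates 1 or 2.

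The label of the tissue was checked against markers. The cardiac myosin light chain gene myl7 had mean levels of 13.39 in control and 13.31 at 2 days (-0.09 ± 0.05, adjusted p = 0.294). Of 12 ventricular cardiomyocyte markers 5 fell and 1, nppa, rose. Each leave-out of 1 array reduced the 5 to between 1 and 3, with 1 left without control replicate 1 or 2-day replicate 3. Scores of these markers lay between -0.016 and 0.018 in control and between -0.160 and -0.100 at 2 days. Of 12 atrial markers, which include hcn4 and myh6, 3 fell and 1 rose (median -0.27). The 3 became 1 without control replicate 3 or 2-day replicates 2 or 3. Atrial scores lay between -0.093 and 0.106 in control and between -0.312 and -0.166 at 2 days. Whether atrial tissue content differed between the groups was not tested. Markers of skeletal muscle (4 of 26 lower, 0 higher), of nerve (1 of 20 lower, 0 higher) and of gill, gut and liver (1 of 20 lower, 0 higher) had no member that rose. The largest difference of a skeletal muscle marker, 1.54, did not pass the test, and 1 such marker was higher without control replicate 3. Over the leave-outs of 1 array the lower counts were 1 to 4, 0 to 1 and 0 to 2. The digestive carboxypeptidase gene cpa5 did not pass the test (-1.63 ± 0.54, adjusted p = 0.0601).

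**Figure D4:**
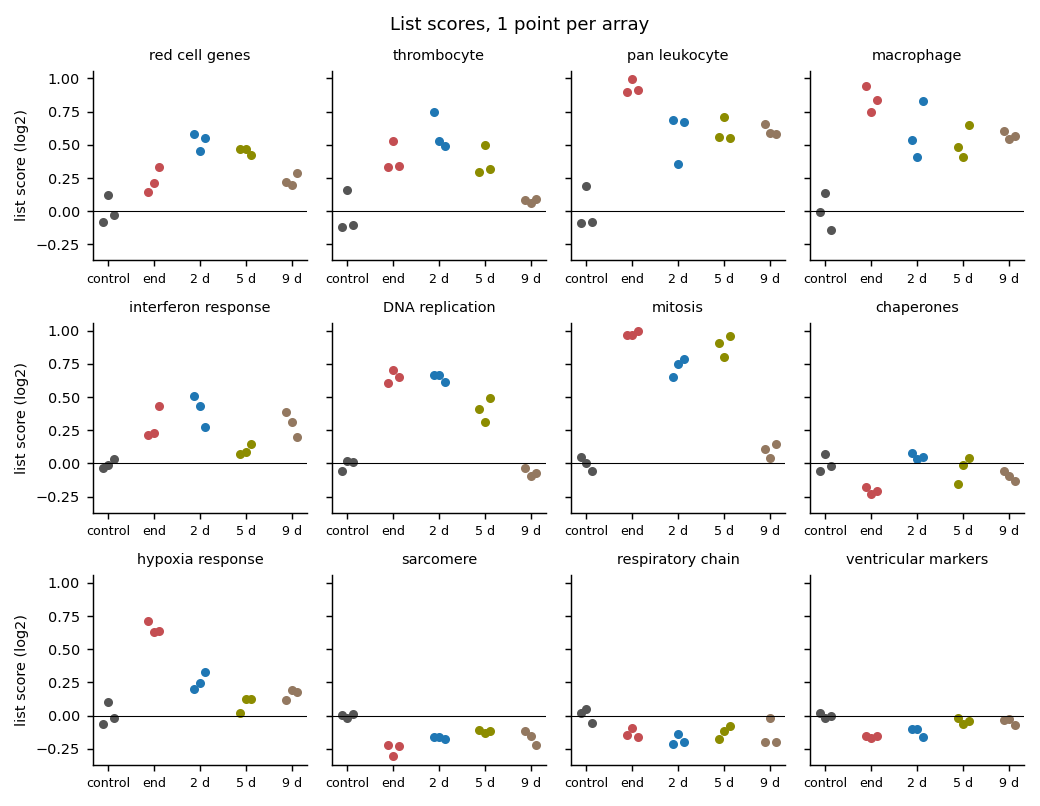
List scores per array, the median over the members of a list of the difference from the control mean on the log2 scale, with 1 point per array and n = 3 arrays per group. At 2 days red cell (0.450 to 0.578) and thrombocyte scores (0.490 to 0.748) stand above control, chaperone scores lie at the control level, and sarcomere (-0.178 to -0.158) and respiratory chain scores (-0.213 to -0.138) lie under it.

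Fewer genes of the contractile machinery were below control at 2 days than at the end of treatment, a difference in counts that was not itself tested. Over all genes the share below control was also smaller, 4.15% at 2 days and 9.60% at the end of treatment. Of 65 sarcomere genes 12 fell and 1 rose, the stretch-response gene ankrd1a, by 1.197, chosen after its value was seen. With arrays centred on their median 24 fell and 0 rose. At the end of treatment 31 had been below control and 3 above, and between the end of treatment and 2 days 10 were higher at 2 days and 2 lower. The titin gene ttn.1 had levels of 11.48, 11.30 and 11.41 in control and 10.89, 10.17 and 10.09 at 2 days. It fell by 1.01 ± 0.18 (adjusted p = 0.00113), as did its neighbour ttn.2 by 1.03 ± 0.18, and neither was called between 2 days and the end of treatment (-0.02 ± 0.18 and -0.06 ± 0.18). The plot of list scores places sarcomere genes of every 2-day array under every control array.

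The kinase gene alpk2 fell by 1.28 ± 0.24, the cardiac LIM gene fhl2a by 1.02 ± 0.20 and the obscurin gene obscnb by 0.59 ± 0.11. The troponin I gene tnni4b.3 was 1.69 ± 0.30 above the end of treatment (adjusted p = 0.00199) and 0.96 ± 0.30 under control, which did not pass the test (adjusted p = 0.0506). Myosin heavy chain genes were not called, with -0.57 ± 0.28 for myh6 (adjusted p = 0.232) and 0.44 ± 0.32 for myh7 (adjusted p = 0.468), although the arrays of myh6 did not overlap.

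Calcium handling genes had 11 of 31 lower and 2 higher. Without control replicates 1 or 2 the lower count was 5 or 7, and without 2-day replicate 3 it was 5. The auxiliary calcium channel gene cacna2d2a went from 9.17, 8.77 and 8.90 to 7.41, 7.71 and 7.62, a fall of 1.37 ± 0.19 (adjusted p = 0.000167). The L-type channel gene cacna1c fell by 0.50 ± 0.09 and the T-type gene cacna1g by 0.66 ± 0.15. The sodium-calcium exchanger gene slc8a1a fell by 0.33 ± 0.07 but was 0.52 ± 0.07 above the end of treatment (adjusted p = 0.000109). The junctophilin gene jph1a, which ties the membrane to the calcium store, fell by 0.51 ± 0.07.

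The gene hcn4, of the pacemaker current, lay between its control and end-of-treatment levels. It stood at 11.40, 11.19 and 11.37 in control and 9.87, 9.93 and 10.18 at 2 days, a fall of 1.33 ± 0.12 (adjusted p = 2.01e-06), and was 1.04 ± 0.12 above the end of treatment (adjusted p = 4.35e-05). Over the list of 58 channel genes 8 fell and 3 rose, with 5 lower without control replicate 3 and 4 without 2-day replicate 2. The inward rectifier gene kcnj12a fell by 0.87 ± 0.14 and the connexin gene gjd6 by 0.77 ± 0.14. The channel subunit genes kcne4 and kcnab1a rose by 1.62 ± 0.28 and 1.03 ± 0.20.

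The list of receptors for the nerves and hormones of the heart also holds some ligand and signalling genes, such as apln. Of its 59 measured genes 6 were higher (10.2%) and 5 lower (8.47%), beside 7.62% and 4.15% of all genes. Without 2-day replicate 2 these became 3 and 2, and 2 were lower without control replicates 2 or 3 or 2-day replicate 3. The muscarinic receptor gene chrm2a, through which the vagus nerve slows the heart, had levels of 9.27, 9.67 and 9.56 in control and 7.84, 8.16 and 7.99 at 2 days. It fell by 1.504 ± 0.24 (adjusted p = 0.000596) and differed from the end of treatment by 0.06 ± 0.24 (adjusted p = 0.946). Adenosine receptors parted, since adora1b fell by 0.48 ± 0.10 while adora2aa and adora2ab rose by 0.81 ± 0.13 and 1.02 ± 0.22. In mammals the A1 receptor slows the heart and A2 receptors widen vessels. The apelin gene apln rose by 0.84 ± 0.12. The secretin receptor gene sctr showed the largest rise from the end of treatment, 2.86 ± 0.26 (adjusted p = 9.78e-06). It remained under control, at 8.45, 8.40 and 7.85 against 8.72, 9.30 and 9.43, a fall of 0.92 ± 0.26 (adjusted p = 0.031) whose call held in 2 of 6 leave-outs of 1 array.

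Cardiac transcription factor genes had 12 of 44 lower and 2 higher, with 7 lower without control replicates 1 or 3 or 2-day replicate 2. At the end of treatment 18 had been below control and 5 above, where 9.60% of all genes were below and 14.6% above. At 2 days 4.15% of all genes were below control. The Iroquois genes parted, as irx1a and irx2a fell by 0.65 ± 0.15 and 0.61 ± 0.11 while irx5a rose by 0.73 ± 0.13. The cofactor gene zfpm2a fell by 0.49 ± 0.08 and the estrogen-related receptor gene esrrga, which supports mitochondrial genes, by 0.39 ± 0.08. Natriuretic peptide genes, markers of heart load, remained up. The gene nppb stood at 9.48, 9.71 and 10.21 in control and 11.36, 11.37 and 11.69 at 2 days, a rise of 1.67 ± 0.17 (adjusted p = 7.42e-06), with -0.54 ± 0.17 against the end of treatment (adjusted p = 0.0584). The gene nppa rose by 0.80 ± 0.09 and was 0.60 ± 0.09 under the end of treatment (adjusted p = 0.000565). The gene nppal was 2.69 ± 0.53 under the end of treatment and 1.395 ± 0.53 over control, which did not pass the test (adjusted p = 0.108) although the arrays did not overlap.

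Of 44 vasoactive peptide and receptor genes 7 rose and 7 fell. Those that rose were the peptide genes edn1, edn2, adma, adm2a, nppa and nppb and the converting enzyme gene ece1, and those that fell were 6 receptor genes and the enzyme gene ece2b. The endothelin gene edn1, of a strong constrictor peptide, had levels of 5.72, 5.92 and 5.62 in control and 8.06, 8.32 and 8.85 at 2 days. It rose by 2.66 ± 0.17 (adjusted p = 1.48e-07), differed from the end of treatment by 0.36 ± 0.17 (adjusted p = 0.255) and exceeded 5 days by 1.07 (adjusted p = 0.0176). Its relative edn2 stood at 5.82, 6.63 and 5.93 in control and 7.55, 7.88 and 7.64 at 2 days, a rise of 1.56 ± 0.18 (adjusted p = 2.87e-05). It was higher at 2 days than in every other group, by 0.81 ± 0.18 over the end of treatment (adjusted p = 0.00887) and 1.25 over 5 days (adjusted p = 0.00893).

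The adrenomedullin genes adma and adm2a, of peptides that widen vessels, rose by 0.66 and 1.63. The endothelin receptor genes ednraa and ednrab fell by 0.33 and 0.74, the urotensin receptor gene uts2r by 0.85 and the natriuretic peptide clearance receptor gene npr3 by 0.91. These genes, ece1 and ece2b were chosen after their values were seen. The vasopressin receptor gene avpr1ab went from 7.35, 8.10 and 7.495 to 5.82, 5.89 and 5.33, a fall of 1.97 ± 0.21 (adjusted p = 1.21e-05), and its paralogue avpr1aa, chosen after its value was seen, fell by 0.56.

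**Figure D5:**
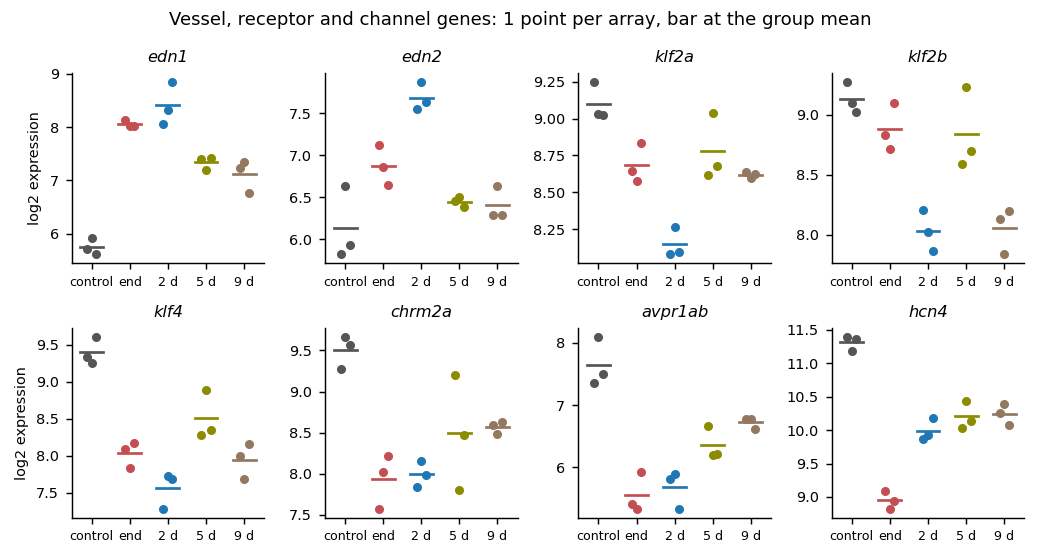
Log2 expression of vessel, receptor and channel genes in each group, with 1 point per array and a bar at the group mean, n = 3 arrays per group, each panel on its own scale. The 2-day arrays of klf2a lie under all other arrays, those of edn2 above all others, and hcn4 at 2 days lies between control and the end of treatment.

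Of 30 Krüppel-like factor genes 7 fell and 2 rose, the latter klf1, described with the red cell genes, and klf17, by 0.53, chosen after its value was seen. The genes klf2a, klf2b and klf4 are known for endothelium under shear stress. For klf2a the levels were 9.25, 9.03 and 9.02 in control and 8.08, 8.27 and 8.10 at 2 days, a fall of 0.95 ± 0.11 (adjusted p = 2.37e-05). It was also lower than at the end of treatment, by 0.54 ± 0.11 (adjusted p = 0.00448), and than at 5 days, by 0.63 (adjusted p = 0.0236). The plot of vessel, receptor and channel genes shows the 2-day arrays of klf2a at the bottom of its panel.

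Its paralogue klf2b stood at 9.27, 9.10 and 9.02 in control and 8.20, 8.03 and 7.86 at 2 days, a fall of 1.098 ± 0.15 (adjusted p = 0.000164). It was 0.85 ± 0.15 under the end of treatment (adjusted p = 0.00191) and 0.81 under 5 days (adjusted p = 0.044). The genes klf2a and klf2b were the 2 of all 19260 (0.0104%) called lower at 2 days than in each of control, end of treatment and 5 days. The 9-day group was not part of that rule. At 9 days klf2b stood at 8.13, 7.84 and 8.20, overlapping its 2-day levels. The gene klf4 fell by 1.83 ± 0.17 (adjusted p = 3.36e-06), was 0.94 under 5 days (adjusted p = 0.0317) and differed from the end of treatment by -0.47 ± 0.17 (adjusted p = 0.11). Its difference from 9 days, -0.38 ± 0.17, did not pass the test (adjusted p = 0.191). The metabolic regulator gene klf15 fell by 1.02 ± 0.12.

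Endothelial and Notch genes were more often up, 20 of 78 higher and 7 lower, with 13 higher without control replicate 1 and 12 lower after centring. The angiopoietin receptor gene tek fell from 7.83, 8.12 and 8.25 to 7.20, 7.05 and 6.98, by 0.99 ± 0.13 (adjusted p = 0.0001). The vessel factor gene sox18 rose by 0.78 ± 0.09. The sprouting marker gene esm1 was 2.36 ± 0.23 under the end of treatment (adjusted p = 1.55e-05) and not called over control (0.57 ± 0.23, adjusted p = 0.129). The growth factor genes vegfaa and vegfab, chosen after their values were seen, were 0.66 and 1.04 under the end of treatment and differed from control by 0.10 and 0.11, which did not pass the test.

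Matrix genes were close to the background, with 7 of 81 collagen and matrix genes higher and 5 lower. The 5 became 3 without control replicate 2, 2-day replicate 2 or 2-day replicate 3. The fibulin gene fbln2 rose by 1.14 ± 0.11, the hyaluronan link protein gene hapln1b by 0.82 ± 0.17 and the laminin gene lamb1a by 0.70 ± 0.12. Enzymes that modify collagen, proteases and inhibitors had 10 of 61 higher and 1 lower, and 13 lower and 3 higher than at the end of treatment. The lysyl oxidase gene loxl2a had levels of 5.92, 6.53 and 6.93 in control and 8.23, 8.71 and 8.11 at 2 days, a rise of 1.89 ± 0.27 (adjusted p = 0.000201). The lysyl hydroxylase gene plod2, another HIF target, rose by 1.43 ± 0.13 and was 1.18 ± 0.13 under the end of treatment. The lysyl oxidase gene loxl1 rose by 0.93 ± 0.11 and was above the end of treatment by 0.46 ± 0.11 (adjusted p = 0.0188).

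Epicardial and regeneration genes had 4 of 47 higher and 5 lower, against 11 lower and 0 higher than at the end of treatment. After centring 2 were higher and 9 lower. The 5 became 2 or 3 without control replicates 1 or 3 or 2-day replicates 1 or 2. The growth factor receptor gene pdgfra of epicardial cells fell from 7.62, 7.54 and 7.24 to 6.67, 6.68 and 6.67, by 0.79 ± 0.13 (adjusted p = 0.000647). The growth factor gene fgf17 fell by 0.58 ± 0.12. The epicardial gene wt1b did not pass the test (-0.84 ± 0.32, adjusted p = 0.104).

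Among signalling lists, hedgehog genes had 2 of 26 lower and 1 higher. The ligand gene dhh went from 7.77, 8.27 and 8.27 to 6.36, 6.40 and 6.33, a fall of 1.74 ± 0.24 (adjusted p = 0.000161), and was 0.89 ± 0.24 under the end of treatment (adjusted p = 0.0295). The co-receptor gene cdon fell by 0.59 ± 0.10. Insulin-like growth factor genes had 6 of 30 higher and 3 lower. The binding protein gene igfbp1a rose by 1.48 ± 0.27 and igfbp6b fell by 1.07 ± 0.14, and igfbp6b was also 1.23 ± 0.14 under the end of treatment (adjusted p = 6.89e-05).

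Guidance cues, which steer axons and vessels, had 16 of 100 lower and 7 higher, with 10 lower without 2-day replicate 3. The paralogues sema3aa and sema3ab parted. For sema3aa the levels were 7.30, 7.78 and 7.65 in control and 6.08, 6.29 and 5.85 at 2 days, a fall of 1.5 ± 0.18 (adjusted p = 4.81e-05). For sema3ab they were 7.57, 7.84 and 7.92 in control and 8.77, 9.01 and 9.20 at 2 days, a rise of 1.22 ± 0.17 (adjusted p = 0.000136). Neither pair of groups overlapped. The netrin gene ntn1b fell by 0.99 ± 0.14 and the slit gene slit1a by 0.71 ± 0.10.

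In the TGF-beta and BMP list 4 of 71 rose and 4 fell (5.63% each), near the 7.62% and 4.15% of all genes. In the Wnt list 3 of 77 rose (3.9%) and 7 fell (9.09%), with 4 lower without 2-day replicate 2 and 11 lower after centring. The follistatin-like gene fstl1a rose by 1.68 ± 0.21 and was 1.43 ± 0.21 under the end of treatment. The ligand gene tgfb1b rose by 0.82 ± 0.10, and the activin subunit gene inhbab fell by 0.96 ± 0.20. The Wnt antagonist gene sfrp5 rose by 1.23 ± 0.18 and the receptor gene fzd3a fell by 0.84 ± 0.18. In the list of neuregulin and ErbB genes 0 of 18 rose and 3 fell, the inhibitor genes lrig1, lrig2 and lrig3, by 0.39 ± 0.08, 0.28 and 0.70 ± 0.12, of which lrig2 was chosen after its value was seen.

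Genes called higher at 2 days than in each of control, end of treatment and 5 days numbered 14 (0.0727%), and 8 of them are named here. Besides edn2, these are hsd17b7 of cholesterol synthesis, b3gnt2a of sugar chain synthesis, the kinase gene ripk4, the membrane gene tmem229b, the helicase gene helz2b and the ubiquitin ligase genes herc56.1 and herc56.3. For hsd17b7 the levels were 4.60, 4.92 and 4.96 in control and 6.81, 6.48 and 6.70 at 2 days, a rise of 1.84 ± 0.14 (adjusted p = 7.78e-07), and it stood 0.84 ± 0.14 over the end of treatment and 0.89 over 5 days. For b3gnt2a they were 4.35, 5.56 and 4.70 against 7.72, 6.73 and 6.82, a rise of 2.22 ± 0.29 (adjusted p = 8.16e-05), with 1.78 ± 0.29 over the end of treatment. In these genes every 2-day array lay above every control array.

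The gene tmem229b stood at 5.56, 6.28 and 5.70 in control and 7.21, 7.03 and 7.03 at 2 days, and rose by 1.24 ± 0.17 (adjusted p = 0.00016). Its end-of-treatment mean of 5.76 was near the control mean of 5.85. The gene helz2b, whose human relative is interferon-induced, had levels of 5.91, 6.40 and 6.40 in control and 7.98, 7.92 and 7.81 at 2 days. It rose by 1.67 ± 0.16 (adjusted p = 4.8e-06) and stood 0.80 ± 0.16 over the end of treatment. The genes herc56.3 and herc56.1 rose by 1.3 ± 0.25 and 1.14 ± 0.16, and whether probes of copies within this family share signal was not tested. The kinase gene ripk4 rose by 1.52 ± 0.19. The plot of chaperone, interferon and other genes shows the 2-day maximum for helz2b, hsd17b7 and tmem229b.

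The comparison of 2 days with 5 days called 36 genes (0.187%), 29 higher (0.151%) and 7 lower (0.0363%) at 2 days, so that few differences between these days were detectable. The count was 8 without 2-day replicate 2, 10 without 5-day replicate 2, 18 without 2-day replicate 1 or 3, and 22 without 5-day replicate 3. Against the end of treatment 1536 genes (7.98%) were called, 678 higher (3.52%) and 858 lower (4.45%) at 2 days, with 984 without 2-day replicate 1. Against 9 days 1775 (9.22%) were called, 1142 higher and 633 lower, with 995 without 2-day replicate 3.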

How the data were processed

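RNA of 15 zebrafish ventricle pools was measured on 1-colour arrays. The authors deposited log2 expression values, 1 per transcript cluster, made with RMA in oligo per the submitters' processing notes, with versions not given in the sources used here. Of 75212 clusters 20806 had 1 gene symbol, 855 several and 53551 none. Genes with several clusters (1365) were represented by the cluster with the highest mean over all arrays, leaving 19260 genes.

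Groups were compared with limma 3.58.1 in R 4.3.3 (1 mean per group over all 15 arrays, moderated variance with a trend, two-sided, Benjamini-Hochberg over all genes). Tables were handled in pandas 2.3.3 under Python 3.11.15 and plotted with matplotlib 3.10.9, and the fit was tested on simulated data. An exact permutation test of 3 against 3 arrays cannot give a p below 0.1.

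Members and the 54 gene lists were chosen with earlier results of these data known. The naming rule took the 12 largest rises and falls (part a), 5 members per list by adjusted p (b), 8 genes per direction against the end of treatment (c) and against all 3 other early groups (d), 6 genes called in opposite directions (e) and up to 2 members per list not past the threshold (g). Parts a to c took only genes whose arrays did not overlap between the 2 groups compared. Their call also had to hold when each of the 6 arrays was left out. Replicate numbers did not pair arrays (correlations of same-numbered deviations -0.085 to 0.071). Alternatives covered variance, scaling, filtering, clusters, a block, a red cell covariate and each array left out. No batch is given in the labels.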

Additional observations from a re-analysis of the deposited data

Results flagged for a closer look

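The difference from control was not the same at 2 days as at other times for many genes, by direct contrasts in the same limma fit. These numbered 1536 against the end of treatment, 36 against 5 days and 1775 against 9 days.

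For 13 genes the difference from control was called in opposite directions at 2 days and at the end of treatment, and 6 of them are named here. By 2 days minus end of treatment on the log2 scale, the creatine transporter gene slc6a8 stood at -1.073, being below control at 2 days, whereas hprt1l stood at 1.692, nrbp2b at 1.662, traf3ip3 at 1.585, the cytokine kinase gene jak2a at 1.154 and nfe2 at 1.135, all above control at 2 days. The call against control held in 2 of 6 leave-outs of 1 array for hprt1l and in 1 of 6 for traf3ip3 and jak2a.

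Among the 53551 transcript clusters without a gene symbol, which no test of genes above used, 1120 were called at 2 days against control, 597 higher and 523 lower. These calls came from a separate fit of all 75212 clusters, with p adjusted over all of them, which called 2585 clusters. The 1120 are therefore not on a par with the 2268 genes, 11.8% of 19260. Groups of 3 arrays are too small for a test of outlying arrays.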

How the results depend on the processing

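The number of genes called against control ranged from 1469 to 1872 when 1 array was left out (969 to 1323 higher, 464 to 647 lower), against the end of treatment from 984 to 1304, against 5 days from 8 to 29 and against 9 days from 995 to 1499. A minimum of 1.5-fold left 1028 genes (767 higher, 261 lower), 754 against the end of treatment and 795 against 9 days. Median centring gave 1461 lower genes. Against 5 days the count was 15 genes without the variance trend, and 5 clusters when every cluster was tested. With the red cell score as a covariate limma called 0 genes (0 higher, 0 lower, 1567 at an unadjusted p under 0.05), 230 against the end of treatment, 14 against 5 days and 179 against 9 days, with the standard error multiplied by 2.886. Sign changes in that fit were counted only over the 219 named genes called against control. Of these 9 turned sign: abca1a to -0.006, hprt1l to -0.902, il2rga to -0.384, jak2a to -0.344, laptm5 to -0.162, nfe2 to -0.353, ntmt2 to -0.180, socs3b to -0.391 and traf3ip3 to -0.927. The causes were not tested.

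With the replicate block the counts were 2135, 1472, 37 and 1646 against control, end of treatment, 5 and 9 days. Other settings gave 1824 (no trend) to 2585 (every cluster, a count of clusters and not of genes). Of 219 named genes called against control, 213 kept the call in every leave-out, which the naming rule had required of most of them. Over all 2268 called genes, 1026 had no overlap, a call kept in every leave-out and a symbol that is not a placeholder. In the 10 other settings apart from the covariate, 212 of the named genes kept the call. The exceptions in those settings were hprt1l, jak2a, ntmt2, pdhx, sctr, traf3ip3 and wnk4b. With 3 arrays a group, small differences are below what could be detected.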

Other observations

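Amino acid and nucleoside transporter genes changed in both directions, 8 of 48 higher and 6 lower than control at 2 days. The glutamine transporter gene slc38a5a had log2 levels of 5.39, 6.07 and 5.90 in control and 7.24, 8.04 and 7.97 at 2 days, without overlap, and rose by 1.96 ± 0.20 (limma, adjusted p = 1.19e-05). The cationic amino acid exchanger genes slc7a6 and slc7a7 rose by 1.21 ± 0.19 and 1.02 ± 0.13. The lower count of 6 became 3 without control replicate 1. Cholesterol genes had 5 of 36 higher and 3 lower, with the methylsterol oxidase gene msmo1 0.71 ± 0.11 and the sterol exporter of lysosomes npc1 0.71 ± 0.09 higher. Oxidative stress genes had 6 of 44 higher and 1 lower, with the peroxiredoxin gene prdx2 0.62 ± 0.09 and the glutathione peroxidase gene gpx3 0.70 ± 0.16 higher. The 6 became 3 without control replicate 3 or 2-day replicate 3.

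Cytochrome P450 genes had 4 of 65 higher (6.15%) and 3 lower (4.62%), near the 7.62% and 4.15% of all genes. The gene cyp2ad2 went from 7.18, 7.55 and 7.87 to 6.01, 5.57 and 5.43, a fall of 1.86 ± 0.24 (adjusted p = 9.39e-05), and cyp2ad6 fell by 0.81 ± 0.11. Immediate early genes had 7 of 51 higher and 5 lower. The growth factor response gene egr1 fell by 0.93 ± 0.18, the phosphatase gene dusp4 rose by 1.102 ± 0.12, and fosl1a rose by 1.02 ± 0.21, or 0.65 without 2-day replicate 3. The counts became 4 higher and 2 lower without control replicate 1, and 2 lower without 2-day replicates 1 or 3. Circadian clock genes had 6 of 48 higher and 4 lower, or 4 and 6 with arrays centred on their median, with 1 higher without control replicate 1 and 3 higher without 2-day replicates 2 or 3. The 4 lower became 2 without control replicate 2 or 2-day replicate 3. The light-induced gene cry5 rose by 1.54 ± 0.17 and was 1.00 ± 0.17 under the end of treatment, and time of day at sampling is not given in the sources used here.

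Other genes with large falls from control had no list of their own. The Ras relative gene RERG went from 10.13, 10.32 and 10.51 to 7.73, 8.41 and 8.71, a fall of 2.04 ± 0.37 (adjusted p = 0.00151). The gene cthl, a relative of cystathionine gamma-lyase, fell by 1.97 ± 0.37 and the retinol-binding gene rbp2a by 1.42 ± 0.24. The sodium pump subunit gene atp1b3b went from 8.57, 8.70 and 8.78 to 7.34, 7.35 and 7.34, a fall of 1.34 ± 0.12 (adjusted p = 3.96e-06), and was 0.69 ± 0.12 above the end of treatment. Of each of RERG and atp1b3b, all 2-day arrays lay under all control arrays.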
